A study of Mus musculus with 2 samples.

Results

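Antibodies are built from a heavy chain and a kappa or lambda light chain, and each chain is encoded by a locus of variable (V), joining (J) and constant (C) segments, with diversity (D) segments in the heavy chain locus only. A developing B cell joins segments of the heavy chain locus first and of a light chain locus afterwards, using the same recombinase that T cells use for their receptor genes. Unrearranged immunoglobulin segments can also be transcribed, and such germline transcripts, including those of the mu constant region, are known in early lymphoid cells outside the B lineage.

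Probe sets of these 3 loci were chosen by their platform gene symbol, which had to begin with Igh, Igk or Igl and go on with a segment or constant-region name. Ighmbp2 and Igll1 were left out. The rule found 52 probe sets among 45037 on the array. Of these, 39 carried the symbol of 1 gene, and 13 were shared, which means that their annotation names several segments. The heavy chain locus (Igh, chromosome 12) had 23 probe sets, the kappa locus (Igk, chromosome 6) 25 and the lambda locus (Igl, chromosome 16) 4. Together they named 27 symbols, 5 of Igh, 20 of Igk and 2 of Igl. No member promoter stood in the sequence table used here, so no sequence is shown.

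Expression was measured in lineage-marker-negative thymocytes of C57BL/6J mice on 2 one-colour Affymetrix arrays, 1 titled DKO and 1 titled TKO. By the series' design text, DKO cells are LckCre(-) Cdkn2a-/- Ring1A-/- Ring1B fl/fl and TKO cells LckCre(+) with the same 3 alleles, so that both groups lack Cdkn2a and Ring1A and recombinase expressed from the T-cell promoter of Lck acts on floxed Ring1B in TKO cells. The samples' genotype field instead calls DKO a Ring1A and Ring1B double knockout and TKO a Ring1A, Ring1B and Cdkn2a triple knockout. Ring1A and Ring1B are the ubiquitin ligases of Polycomb repressive complex 1, and the labels also state culture in standard medium, without a duration; neither age nor sex is given. With 1 array per label there is no spread between samples and no test: every difference below is between these 2 arrays.

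The targeted genes did not settle which text is right. In the order DKO-labelled, TKO-labelled, which is kept for all pairs of signals below, Cdkn2a had 679 and 18.5 and the brightest Rnf2 (Ring1B) probe set had 4149 and 4384. Ring1 (Ring1A) had 133 and 147. The position of the probes against the deleted exons is not known here, so the arrays are called by their labels. Xist, transcribed from the inactive X chromosome, had 124 and 16502, and the Y-linked Eif2s3y had 1711 and 55.3, so sex differed together with the label and the parts of label and sex cannot be told apart. Markers of the thymocyte lineage were present: 19 of 20 T lineage genes were above the floor, and the pre-T-cell receptor chain Ptcra had 4028 and 2564. Cd4 was below the floor on both arrays at 17.8 and 12.2, while Cd8a had 616 and 635 and Cd8b1 had 975 and 1080.

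The unit is the MAS5 signal, an array intensity on a linear scale that the authors had scaled per array (trimmed mean 497 on each). The median of each array over the whole table (68.8 and 71.8) served as its floor, and a signal below it was not counted as measured. Log2 ratios are of TKO-labelled over DKO-labelled signal, after raising lower signals to the floor. A probe set is called higher or lower at 2-fold or more, and a ratio with 1 array below the floor is a bound, written as at least. Brightness differs between probe sets with their probes, so bright, dim and percentile describe a probe set's signal on its array and not the amount of its transcript relative to others.

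Several V segments and part of the Ighm probe sets had higher signals on the TKO-labelled array, while the brightest constant-region signals were under 2-fold apart. Of the 52, 36 were above the floor on at least 1 array, and 12 of these were higher by the rule, 1 was lower and 23 passed neither limit. Over the full array 2.91% of 23894 measured probe sets were called higher and 0.578% lower. With the floor moved to percentile 25, 13 of 46 members were higher (background 5.93%) and 1 lower (background 3.24%), and at percentile 75, 11 of 22 were higher (background 1.83%) and 0 lower (background 0.228%). The median log2 ratio of the 36 was 0.49, against -0.02 for all measured probe sets. Of the 31 members measured on both arrays, 22 had a positive and 9 a negative log2 ratio. The members span a wide range, from -1.24 for Ighg3 to at least 5.03 for 1 probe set of Iglv1, as log2 ratios. The 12 called higher came from 5 single symbols (Ighm, Ighv14-2, Igkv14-111, Igkv9-120 and Iglv1) and the shared lambda probe set Iglc1;Iglv1. Probe sets of 1 gene are not independent of each other, and with 1 probe set per symbol, the brightest, 5 of 20 were higher.

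In the lambda locus the 4 probe sets were all at least 2-fold higher, and their median log2 ratio was 1.96. Array-wide, 2.91% of measured probe sets were higher. After quantile normalization only 2 of the 4 lambda probe sets passed 2-fold, and with the floor at percentile 75 it was 3. Iglv1, a lambda V segment, was read by 3 probe sets. Probe set 1427292_at had 43.1, below the floor, and 2245, so it was at least 32.6-fold higher. With the floor at percentile 75 this bound falls from a log2 ratio of 5.03 to 2.43, below the 3.47 of Ighv14-2. The other Iglv1 probe sets lay just past the limit: 1447918_x_at had 220 and 451 (2.05-fold) and 1430523_s_at had 600.4 and 1211 (2.02-fold). Both fell short of 2-fold after quantile normalization, and 1447918_x_at also did with the floor at percentile 75 (log2 ratio 0.11). The shared probe set 1424931_s_at, whose symbols are the constant segment Iglc1 and Iglv1, had 395 and 2927 and was 7.41-fold higher. The signals of all 4 lambda probe sets were higher on the TKO-labelled array, and none of them read a lambda constant segment without V.

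The heavy chain locus held 14 measured probe sets, of which 6 were higher, 1 was lower and 7 passed neither limit (median log2 ratio 0.50). The array-wide shares were 2.91% higher and 0.578% lower. Its single V segment probe set of 1 gene, Ighv14-2 (1455530_at), had 326 and 4633, a 14.2-fold difference. The first signal stood at percentile 72.1 of its array and the second at percentile 96.1. Among 183 V segments, pseudogenes included, that a RefSeq table of assembly GRCm38.p6 lists in this locus, Ighv14-2 is at position 39 counted from the J segments. The other V segment on the array, Ighv1-72 (position 165), was read only by a probe set shared with Ighm, with 53.1, below the floor, and 91.8 (a log2 ratio of at least 0.41).

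Ighm, the constant region of IgM and the first heavy chain made by a B cell, had 11 probe sets that did not agree. Of the 8 measured, 5 were higher, 3 passed neither limit and 0 were lower, and the median log2 ratio was 1.31. Array-wide, 2.91% were higher and 0.578% lower. The largest ratio belonged to 1425324_x_at, with 630 and 2749 (4.37-fold). Probe set 1427756_x_at had 760 and 3033 (3.99-fold), and 1425247_a_at had 1196 and 4588 (3.84-fold). Smaller but past the limit were 1425385_a_at with 583 and 1468 (2.52-fold) and 1427870_x_at with 1928 and 4712 (2.44-fold). All 5 started between percentile 78.9 and 91.1 of the DKO-labelled array.

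The brightest Ighm probe sets told otherwise. Probe set 1427351_s_at had 13009 and 12741 (log2 ratio -0.03) and 1427329_a_at had 8687 and 13096 (log2 ratio 0.59). The dim 1452535_at had 185 and 227 (log2 ratio 0.29). The brightest pair already stood at percentile 98.0 and 98.8 on the DKO-labelled array, so a bright signal annotated to Ighm was present in both thymocyte preparations. The Ighm log2 ratios ran from -0.03 (0.10 after removal of a lowess trend) to 2.13, with an SD of 0.83 over the 8 probe sets. Between probe sets of the same gene the pooled SD was 0.28 over 4794 genes, and both SDs hold disagreement within the same hybridisations only. The 5 higher Ighm probe sets are of the _a_at and _x_at types, and without the types that can read several transcripts (_x_at, _s_at and _a_at) 0 of 2 measured constant probe sets was higher.

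The other heavy chain constant regions were not higher. Igha, the constant region of IgA, had 3 bright probe sets, with 15113 and 13451 (1421653_a_at), 12812 and 11338 (1425763_x_at), and 8196 and 7237 (1429381_x_at). Their log2 ratios lay between -0.18 and -0.17, and all 3 stood at percentile 97.7 or above on both arrays. Ighg3, a constant region of IgG reached by class switching, had 1 measured probe set (1427503_at) of 4, with 670.2 and 284, 2.36-fold lower. It was the sole member called lower, and with the floor at percentile 75 it was not called. None of the other 3 Ighg3 probe sets reached the floor on either array.

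The kappa locus was mixed. Of 18 measured probe sets 2 were higher, 0 lower and 16 neither, and the median log2 ratio was 0.23. Over the full array 2.91% of measured probe sets were higher and 0.578% lower. Igkv14-111 (1451951_at) had 200.3 and 1415 and was 7.06-fold higher. Igkv9-120 was read by 3 probe sets that went apart: 1460423_x_at had 414 and 1109 (2.68-fold higher), 1452536_s_at had 130.1 and 89.2 (log2 ratio -0.54), and 1427750_at was below the floor on both arrays at 38.2 and 13.6. Igkv14-111 and Igkv9-120 are at positions 132 and 143 of 162 V segments, counted from the J segments. Igkv15-103 and Igkv19-93, neither of them called, are at 124 and 109. Between the called segments, Igkv1-117 at position 138 was below the floor on both arrays. Too few segments of the locus were read to compare calls by position. With the floor at percentile 75, Igkv14-111 had a log2 ratio of 1.76. The probe set of Igkv8-30, at position 32, was very bright (1452463_x_at, 14657 and 23365) with a log2 ratio of 0.67. It is of the _x_at type, and the bright shared probe sets with Igkc described below also name Igkv8-30. Whether its signal comes from Igkv8-30 alone was not tested.

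The remaining kappa V segments were dim and below 2-fold in either direction. Igkv4-68 had 95.1 and 149 (log2 ratio 0.65), and Igkv6-20 had 71.2 and 86.7 (0.28). On the negative side, Igkv15-103 had 164 and 112 (-0.54), Igkv6-14 had 302 and 255 (-0.24), and Igkv4-72 had 88.9 and, below the floor, 61.5 (-0.31 or lower). Igkv19-93 had 71.3 and 65.0, at the floor. These 6 probe sets gave no common direction: V segments of the same locus, and Igkv6-14 and Igkv6-20 of the same V family, had log2 ratios of different sign.

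The kappa constant region Igkc was represented only in shared probe sets. The 3 probe sets annotated to Igkv6-23, Igkv4-53, Igkv8-30, Igkj1 and Igkc had 18228 and 23428 (1427455_x_at), 16950 and 19113 (1427660_x_at), and 15966 and 17320 (1452417_x_at). Their log2 ratios were 0.36, 0.17 and 0.12, and all stood at percentile 99.1 or above on both arrays. These probe sets also name V and J segments, so their signal cannot be given to Igkc alone. They were under 2-fold apart, while Igkv14-111 and 1 of the Igkv9-120 probe sets in the same locus were past 2-fold.

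Constant and variable parts, as named by the platform symbol, were then compared over probe sets of 1 gene. Probe sequences were not available here. Whether a probe set annotated to Ighm alone also reads V sequence was therefore not tested. Constant probe sets, all of the heavy chain, had 5 of 12 higher and 1 lower (median log2 ratio 0.44), and the 5 were all of Ighm. Variable probe sets had 6 of 14 higher and 0 lower (median log2 ratio 0.66), in all 3 loci. The share called higher was thus alike, 41.7% and 42.9%, over few probe sets. Over all measured probe sets it was 2.91%, and 0.578% were lower. With the brightest probe set per symbol, 0 of 3 constant and 4 of 11 variable symbols were higher. The members past 5-fold were the V segment probe sets of Iglv1 (1427292_at), Ighv14-2 and Igkv14-111, and the shared Iglc1;Iglv1, which names a constant and a V segment. Only in the heavy chain locus were both parts measured with probe sets of 1 gene, where the V segment had a log2 ratio of 3.83 and the largest constant ratio was 2.13.

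Shared probe sets were called less often than those of 1 gene. Of 10 measured shared probe sets 1 was higher (Iglc1;Iglv1) and 0 lower (median log2 ratio 0.39). Probe sets of 1 gene had 11 higher and 1 lower of 26 measured, with a median of 0.62. The array-wide shares were 2.91% higher and 0.578% lower, and only 0.466% higher above percentile 90 of the DKO-labelled array. The 3 shared probe sets with Igkc lie in that bright band, so class and brightness are not separated here. Besides the 3 with Igkc, the shared kappa probe sets were dim. Probe sets 1427576_at and 1427577_x_at, both annotated to Igkv6-14, Igkv6-23 and Igkv8-19, had 71.8 and 106, and 85.4 and 135 (log2 ratios 0.57 and 0.66), while 1451965_at with the same 3 symbols had 225 and 152 (-0.56). Identical annotation thus gave log2 ratios of both signs. The probe set of Igkv4-55 and Igkv4-68 had 109 and 167 (0.61), near the 0.65 of Igkv4-68 alone, and that of Igkv6-14 and Igkv6-23 had 68.0 and 73.3, at the floor.

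The calls were then set against brightness on the DKO-labelled array. This split was chosen after the values were seen. Of the 10 members above percentile 90 of that array 1 was higher (Ighm, 1427870_x_at), with a median log2 ratio of 0.15. Among all 4504 probe sets of that brightness 21 (0.466%) were higher, with a median of -0.10. Of the 23 members between percentile 50 and 90, 10 were higher, with a median of 0.65, against 507 of 18015 probe sets (2.81%) and a median of -0.02. Of the 19 members below percentile 50, 16 were below the floor on both arrays, and 1 of the other 3 (Iglv1) was higher, against 168 of 1375 measured probe sets (12.2%). Those 3 were measured through the TKO-labelled array alone and could have only a positive ratio. Members below the floor on both arrays, with signals from 0.386 to 59.1, comprised 3 probe sets each of Ighm and Ighg3, 7 of kappa V segments and 3 shared by Ighv14-2, Ighg3 and Ighm, and they have no ratio.

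Genes that work with the immunoglobulin chains differed in part. The list of B cell receptor chains and proximal signalling genes had 9 of 15 genes higher, 0 lower and a median log2 ratio of 1.22, where 3.58% of all 11280 measured genes were higher and 0.532% lower. Cd79a and Cd79b, which pair with membrane immunoglobulin to signal, had 291 and 678 (2.33-fold) and 2845 and 8501 (2.99-fold). The other higher genes were the kinases Syk, Btk and Blk, the adaptors Blnk and Bank1, and the surface proteins Cd22 and Cd72, from 2.27-fold in Blk to 7.39-fold in Bank1. The surrogate light chain pairs with the mu chain before a light chain is made. Its chains Vpreb1 (6167 and 6691) and Igll1 (7988 and 8657) had log2 ratios of 0.12 each. Vpreb3, listed with them but not a chain of this pair, had 2523 and 7264 (2.88-fold), so 1 of the 3 listed genes was higher.

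No gene of the recombination machinery passed the 2-fold rule. In the list of V(D)J recombination and end-joining genes, 0 of 12 were 2-fold higher or lower, and the median log2 ratio was -0.01. Among all measured genes 3.58% were higher and 0.532% lower, so 0 among so few genes does not stand apart. The recombinase subunits Rag1 and Rag2 had 11324 and 9732, and 2118 and 1933 (log2 ratios -0.22 and -0.13). Both genes were well above the floor on both arrays. T cell receptor segments, the most alike loci in structure, had 0 of 11 measured probe sets higher and 1 lower (median log2 ratio -0.44). Over all measured probe sets 2.91% were higher and 0.578% lower, so 0 higher of 11 is near the background. The lower one was Trgv4 (1422189_x_at, 12421 to 5656), and 3 probe sets of Trav9d-3 were on the positive side, from 0.72 to 0.89.

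Genes of antibody secretion were split. In the plasma cell and class-switch list, 5 of 11 measured genes were higher, 0 lower and 6 neither (median log2 ratio 0.13). The shares of all measured genes were 3.58% higher and 0.532% lower. Higher were the chaperone Mzb1, which assists immunoglobulin assembly (1962 to 6233, 3.18-fold), the surface proteoglycan Sdc1 (2.59-fold), the transcription factors Irf4 (2.64-fold) and Prdm1 (44.0, below the floor, to 152, at least 2.21-fold), and the elongation factor Ell2 (2.44-fold). Jchain, which joins IgM and IgA into polymers, had 5467 and 5679 (log2 ratio 0.06), and Xbp1, a secretory transcription factor, had 7305 and 8017 (0.13). Jchain and Xbp1 were bright and alike on both arrays, as were the Igha probe sets and the shared probe sets that name Igkc among other segments.

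Markers of B cells and of some other cell types moved the same way as the higher segments. In bulk RNA more cells of a type and more RNA per cell cannot be told apart. For the counts below, 3.58% of all 11280 measured genes were higher and 0.532% lower. B cell surface genes had 7 of 11 measured genes higher and 0 lower (median 1.58), and the summed signals of the list were 45784 and 64955. The largest parts of these sums were Cd24a (24737.5 and 25759.9) and Ptprc (14543.5 and 13839.8), neither of them called. Summed signals are led by the brightest probe sets of a list and do not measure the amount of a cell type. B lineage transcription factors had 6 of 14 higher and 0 lower (median 0.86, summed signals 32295 and 48821), among them Ebf1 (5.79-fold) and Pax5 (4.04-fold). The lists overlap: the higher genes Cd79a, Cd79b, Cd22 and Cd72 are in the B cell receptor and B cell surface lists. Cr2, not called, is also in both. Irf4 is counted in the plasma cell and B lineage factor lists. Lef1 (log2 ratio -0.25) is counted in the B lineage factor and T lineage identity lists. The lists named here are therefore not separate sets of values. Macrophage and monocyte genes had 4 of 11 higher and 0 lower (median 0.93, summed signals 3839 and 9745). Dendritic cell genes had 0 of 9 higher and 0 lower (median 0.39, summed signals 25836 and 22130), which does not stand apart from all genes. Their sums were led by Ly6d (16789.8 and 11116.2) and fell while the median was positive.

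T lineage identity genes had 0 of 19 higher and 1 lower (median -0.36, summed signals 125355 and 87516). Neutrophil genes had 0 of 10 higher and 2 lower (median -0.61, summed signals 3476 and 1981), and erythroid genes 0 of 3 higher and 0 lower (median -0.16, summed signals 563 and 433). With 3.58% of all measured genes higher and 0.532% lower, 0 higher in lists of this size does not stand apart. No listed marker had a signal of 0, though several did not reach the floor on either array, among them Fcer2a of mature B cells, Cd14 and Flt3. By list these were 5 of 8 erythroid, 3 of 12 dendritic cell and 2 of 13 macrophage and monocyte genes. The B cell surface, B lineage factor, plasma cell, T lineage and neutrophil lists had 1 such gene each. The cells had been depleted of lineage-marker-positive cells by beads, and the markers used are not named in the labels. The part of these cell types in the immunoglobulin signals was not tested.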

How the data were processed

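RNA of lineage-negative thymocytes was measured on 2 arrays, grouped by title. The deposited values are intensity values, 1 MAS5 signal per probe set on a linear scale; per the submitters' processing notes they were made with MAS5, of unknown version and settings, and the scaling was read from the deposited values. Neither detection calls nor scanner files were analysed here, so batches could not be examined; 1 array per label limits the precision.

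Of 45037 probe sets, 34945 carried 1 platform symbol, 932 several and 9160 none. Entrez IDs matched 26 of 27 member symbols to a RefSeq table (GRCm38.p6), used for names, chromosomes and segment order. Floor, log2 ratio and the 2-fold rule were computed with pandas 2.3.3 and numpy 2.4.6 (Python 3.11.15; statsmodels 0.14.6 for lowess), and checked on simulated data. Gene lists used 1 probe set per gene, that with the highest mean log2 signal. Named were all measured constant probe sets, the 4 highest and 4 lowest V ratios per locus, bounds past 2-fold and the 6 largest shared ratios; the remainder were named after their values were seen. The members and lists were chosen with earlier results of these data known. Alternatives were centring, quantile normalization, a lowess trend (span 0.3), floors at percentile 25 and 75, no floor, probe set types, updated symbols and 1 probe set per gene.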

Additional observations from a re-analysis of the deposited data

How the results depend on the processing

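Centring, lowess and updated symbols changed no count given for the loci and parts by more than 1.5 times. Quantile normalization left 2 of 4 Igl probe sets higher. With the floor at percentile 25, 2 of 12 shared probe sets were higher, and with it at percentile 75, 0 members were lower and the median log2 ratio was 0.84 over 22 measured members. With no floor, 10 Igh, 4 Igk, 8 constant and 2 shared probe sets and 2 T cell receptor probe sets were higher, and 3 members were lower; 6235 of all 45037 probe sets were then higher and 4735 lower. Without the _x_at, _s_at and _a_at types, 3 of 13 members were higher (1 Igh, 1 Igk and 1 Igl), with 0 constant, 3 variable and 0 shared. Of all measured probe sets of the remaining type, 2.82% were higher. With 1 probe set per symbol, 5 of 20 members were higher, with 1 Igh, 2 Igl and 0 constant. At percentile 75 the log2 bound of Iglv1 (1427292_at) fell to 2.43, and Ighv14-2, Igkv14-111, Iglv1 (1447918_x_at) and Ighg3 had log2 ratios of 3.47, 1.76, 0.11 and -0.64. None of the 13 called members changed the sign of its log2 ratio under the scalings and floors. No paired analysis was possible because each label has 1 array. Without replicates the precision of each ratio is unknown, and dim probe sets near the floor have the least certain ratios.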

Other observations

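The array also holds 4 probe sets annotated to Igk as a whole locus, with no segment named, which the rule for members does not take in. Probe set 1425738_at had signals of 276 and 286, DKO-labelled first (log2 ratio 0.06), and 1452557_a_at had 236 and 311 (0.40). The other 2 were below the floor on both arrays.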
